A study of Mus musculus with 28 samples.

Results

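The 9 genes Cyb5r4, Lamtor2, Hscb, Zfp87, Cd7, Med11, Phf11a, Rilpl2 and Apobr were taken from a microarray series on mouse splenic dendritic cells with and without the NADPH oxidase NOX2. They were chosen by their difference between knockout and wild-type arrays of this same series, beside Cybb, which encodes NOX2, and Stx8, so their genotype differences are given as a description. Where counts of genes called between genotypes name any of the 9, they are no test of these genes. The 9 are of 19938 genes that had a probe set with exactly 1 gene symbol, and all 9 were among the 10452 genes tested, which exceeded a log2 level of 5 on at least 3 arrays. The name under which these genes were collected, genes shifted in NOX2 knockout, held for Rilpl2 (lower) and Apobr (higher) whichever wild-type arrays were used. For the other 7 the direction with Ang II depended on which wild-type arrays were used, and with vehicle it did so for Lamtor2, Zfp87 and Cd7.

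NOX2, also called gp91phox, is the part of the phagocyte NADPH oxidase that carries out its reaction. It moves electrons from NADPH across the phagosomal membrane to oxygen, which yields superoxide. In dendritic cells this oxidase slows the acidification of phagosomes and so affects how ingested antigen is degraded and presented. None of the 9 genes encodes an oxidase subunit. Cyb5r4 also carries electrons, as a cytochrome b5 reductase, and the others belong to lysosomal signalling, iron-sulfur cluster assembly, transcription, membrane traffic, lipid uptake and the cell surface.

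The series holds 28 one-colour Affymetrix arrays of total RNA, labelled as biological replicates, from mice aged 3 months. Wild-type C57BL6/J samples were vehicle-treated (sham in the titles, 7 arrays), given angiotensin II (Ang II, a vasoconstrictor peptide, 4 arrays), given Ang II with 2-hydroxybenzylamine (2-HOBA, a scavenger of reactive dicarbonyls, 4 arrays), or given Ang II with a vasodilator and a diuretic that lower blood pressure, hydralazine and hydrochlorothiazide (Hyd/HCTZ, 6 arrays). Samples from the GP91 Phox knockout were vehicle-treated (3 arrays) or given Ang II (4 arrays). Some knockout titles wrote Ang I where the descriptions wrote Ang II, and the descriptions were followed. The sources used here do not settle whether the mice or the isolated cells were treated, and the sort or gate and the doses were not given in them. Levels are log2 values on the RMA scale, on which a difference of 1 is a 2-fold difference.

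Cybb was lower on all 7 knockout arrays (6.41 to 7.18) than on 20 of the 21 wild-type arrays (8.35 to 9.75), and Stx8 was 3.02 to 3.84 on knockout and 5.56 to 6.90 on wild-type arrays. Cybb was 6.34 and Stx8 6.61 on wild-type vehicle replicate 2, whose Cybb level went against its label. Its mean correlation with the other arrays was 0.852 where every other array had at least 0.927, so the genotype differences of the 9 genes are given with and without it. The 28 arrays also fell into 3 sets on the first principal component (27.7% of the variance) of 6617 unnamed probe sets, sets that the labels do not name. Gaps of 13.3 and 30.4 on this axis parted the sets, while wild-type vehicle replicate 2 lay a further 25.3 beyond the next array on the set 1 side and was counted with set 1. All 7 knockout arrays were in set 1, together with replicates 1 to 3 of wild-type vehicle and replicates 1 and 2 of wild-type Ang II. Replicates 4 to 7 of wild-type vehicle, replicates 3 and 4 of wild-type Ang II and the 4 arrays with 2-HOBA made up set 2, and the 6 Hyd/HCTZ arrays made up set 3. Hyd/HCTZ and set 3 cannot be told apart. The spread of values on an array also differed by set. The interquartile range was 2.43 to 2.67 in set 1 (1.92 on wild-type vehicle replicate 2), 2.61 to 3.03 in set 2 and 3.09 to 3.44 in set 3. The median of tested genes was 5.80 to 5.93 (5.47 on that replicate), 5.88 to 6.10 and 6.14 to 6.44. The main fit does not adjust for this spread, and its part in the differences between sets was not tested. All 6 shared dendritic cell markers were above a log2 level of 5 on at least 1 array of every group, and their mean level ran from 7.46 to 9.18 over the 28 arrays.

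Of the 9 genes, 6 had a promoter window in the RefSeq table of GRCm38.p6, which spans 250 bases before to 50 after the start of the gene. The windows of Cyb5r4, Lamtor2, Med11, Rilpl2 and Apobr are shown because they are of genes that were higher (Cyb5r4, Lamtor2, Med11 and Apobr) or, without wild-type vehicle replicate 2, lower (Rilpl2) on all 7 knockout arrays than on the wild-type arrays of set 1. Capitals mark matches to motifs that were chosen after the sequences had been read, on either strand. Each sequence is written 5′ to 3′ on the strand of its gene.
Cyb5r4: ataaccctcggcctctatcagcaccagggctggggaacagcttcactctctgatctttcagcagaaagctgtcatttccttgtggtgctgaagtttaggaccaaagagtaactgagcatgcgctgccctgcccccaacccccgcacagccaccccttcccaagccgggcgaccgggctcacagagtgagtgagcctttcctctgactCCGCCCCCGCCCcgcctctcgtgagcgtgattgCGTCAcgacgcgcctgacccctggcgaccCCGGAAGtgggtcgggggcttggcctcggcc
Lamtor2: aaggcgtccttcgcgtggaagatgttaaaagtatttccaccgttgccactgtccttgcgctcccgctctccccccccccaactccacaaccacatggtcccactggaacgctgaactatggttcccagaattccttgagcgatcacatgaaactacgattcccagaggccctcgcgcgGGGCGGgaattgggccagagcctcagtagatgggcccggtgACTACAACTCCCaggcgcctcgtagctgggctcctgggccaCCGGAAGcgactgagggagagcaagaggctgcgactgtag
Med11: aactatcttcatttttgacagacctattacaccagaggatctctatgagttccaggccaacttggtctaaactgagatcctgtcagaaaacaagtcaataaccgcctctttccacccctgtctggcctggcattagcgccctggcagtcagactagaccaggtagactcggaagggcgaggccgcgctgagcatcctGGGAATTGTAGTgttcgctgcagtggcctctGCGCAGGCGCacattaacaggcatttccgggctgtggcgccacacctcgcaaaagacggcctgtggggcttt
Rilpl2: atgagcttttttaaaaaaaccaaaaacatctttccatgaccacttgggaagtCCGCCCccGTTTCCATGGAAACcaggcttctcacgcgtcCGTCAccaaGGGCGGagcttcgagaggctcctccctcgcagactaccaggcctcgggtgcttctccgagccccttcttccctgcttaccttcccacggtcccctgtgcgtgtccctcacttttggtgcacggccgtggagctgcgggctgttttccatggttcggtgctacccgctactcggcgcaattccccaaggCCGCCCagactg
Apobr: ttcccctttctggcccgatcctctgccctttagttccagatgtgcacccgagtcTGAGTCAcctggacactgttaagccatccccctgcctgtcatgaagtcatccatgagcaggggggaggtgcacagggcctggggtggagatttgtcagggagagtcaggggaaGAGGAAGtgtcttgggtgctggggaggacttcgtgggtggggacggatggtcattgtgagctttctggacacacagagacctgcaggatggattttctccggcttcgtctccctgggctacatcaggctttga
The windows lie at chr9:87021779-87022078 for Cyb5r4 (plus strand), chr3:88552902-88553201 for Lamtor2 (minus strand), chr11:70451668-70451967 for Med11 (plus strand), chr5:124478186-124478485 for Rilpl2 (minus strand) and chr7:126584758-126585057 for Apobr (plus strand).

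The 12-letter ZNF143 site ACTACANNTCCC was in the windows of Lamtor2, beginning 31 bases before the start, and of Med11, beginning 53 bases before it on the opposite strand, and 1.81% of the 32851 windows in the table hold it. The ETS site CCGGAAG stood 19 bases after the start of Cyb5r4 and 10 bases after that of Lamtor2 (8.86% of windows). Med11 held the NRF1 site GCGCANGCGC, beginning 22 bases before its start (4.6% of windows). The RFX X-box GTTNCCATGGNAAC, a palindrome, stood in the Rilpl2 window, beginning 190 bases before the start, and in 0.128% of all windows. Apobr held the PU.1 site GAGGAAG, which the Phf11a window also held (13.6% of windows), and the AP-1 site TGANTCA (7.81%). The SP/KLF box GGGCGG stood in the Cyb5r4, Lamtor2 and Rilpl2 windows (35.7% of windows) and the CRE half-site TGACG in those of Cyb5r4 and Rilpl2 (20.8%). None of these matches overlapped a match to another motif. GC content was 63.3% in the Cyb5r4 window, 60% in Lamtor2, 59% in Rilpl2, 57.3% in Apobr and 54.3% in Med11. A match describes letters in a window and is no evidence that the factor binds there.

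Across the 6 groups, 8 of the 9 genes were highest with Hyd/HCTZ, on arrays that did not overlap any of the other 22 arrays, against 20.2% of all tested genes. Apobr was the gene without that separation. The 22 arrays include those whose difference chose the genes, so this count is not independent of that choice. Below Hyd/HCTZ, the knockout means of 7 genes lay above those of the set 1 wild-type arrays and, with Ang II, below those of the set 2 wild-type arrays. Rilpl2 and Apobr had patterns of their own, with Rilpl2 low and Apobr high in knockout cells.

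**Figure D1:**
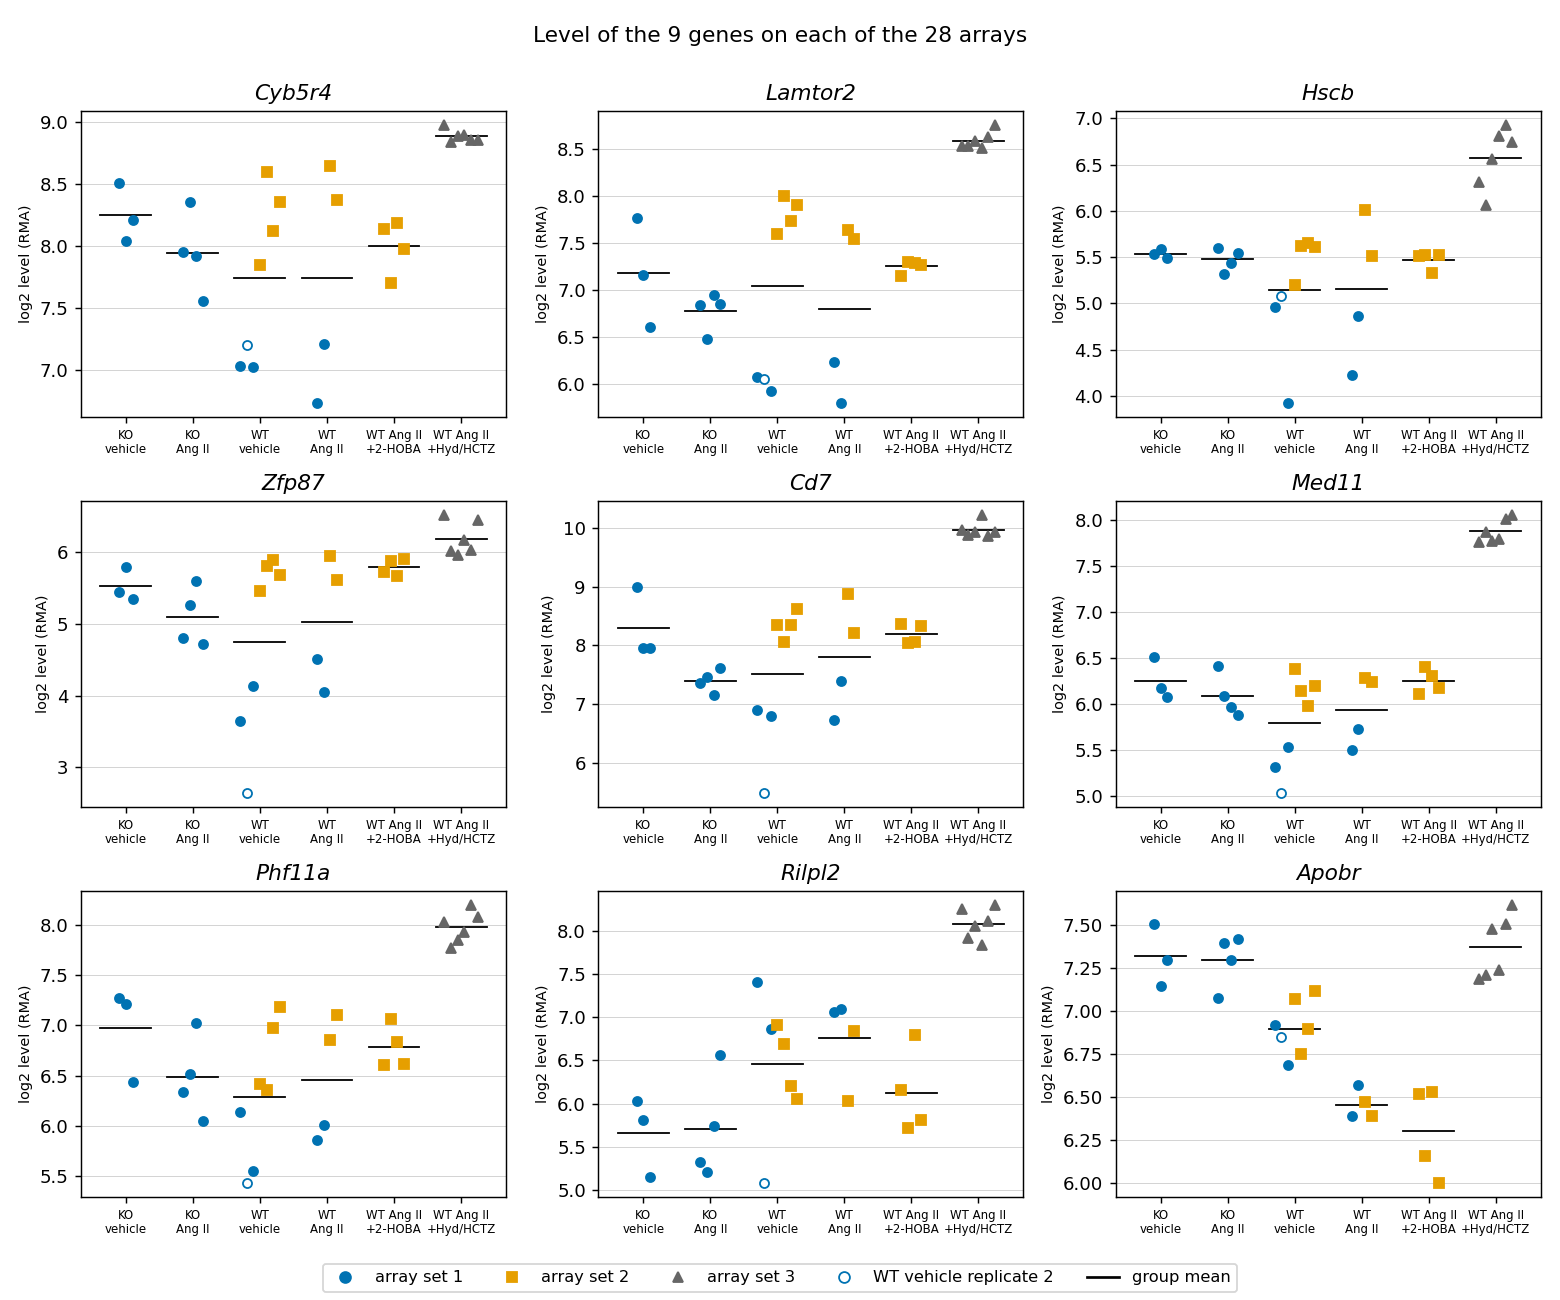
Each panel plots the log2 RMA level of 1 gene (vertical axis) on each of the 28 arrays by group (horizontal axis), with blue circles for set 1, orange squares for set 2, grey triangles for set 3, an open circle for wild-type vehicle replicate 2 and a line at the group mean. In the 7 panels from Cyb5r4 to Phf11a the set 1 wild-type arrays with vehicle or Ang II sit below those of set 2 and the Hyd/HCTZ arrays at the top, whereas Rilpl2 is low and Apobr high on the knockout arrays.

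Cyb5r4 encodes a soluble reductase that joins a cytochrome b5 domain to a cytochrome b5 reductase domain in 1 protein and takes electrons from NADH or NADPH. Its log2 level was 8.51, 8.04 and 8.21 on the 3 knockout vehicle arrays and 7.95, 8.36, 7.92 and 7.56 on the 4 knockout Ang II arrays. On the 7 wild-type vehicle arrays it ran from 7.02 to 8.60 with a median of 7.85, and the 3 of set 1 read 7.03, 7.20 and 7.02. The wild-type Ang II arrays read 6.73 and 7.21 in set 1 and 8.65 and 8.37 in set 2. The wild-type groups thus split by set, and the knockout arrays lay above the set 1 arrays and overlapped those of set 2. With 2-HOBA it was 8.14, 7.70, 8.19 and 7.98, and with Hyd/HCTZ it ran from 8.84 to 8.98 with a median of 8.88. Knockout minus wild type was 0.51 with vehicle (0.42 without wild-type vehicle replicate 2) and 0.21 with Ang II. A second probe set of Cyb5r4, which was not used because its mean was lower, did not separate the genotypes in the same way: it averaged 5.89 on the 7 knockout arrays and 5.61 on the 5 set 1 wild-type arrays, and these overlapped. Against all wild-type arrays its mean was lower in knockout cells, with overlap. It was 6.00 against 6.18 with vehicle (6.31 without wild-type vehicle replicate 2) and 5.80 against 5.99 with Ang II. The sign of the Cyb5r4 difference thus depended on the probe set.

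Lamtor2, also called p14, is a scaffold subunit of the Ragulator complex, which holds Rag GTPases and mTORC1 at the lysosome. It was 7.77, 7.16 and 6.60 on knockout vehicle arrays and 6.84, 6.47, 6.94 and 6.85 on knockout Ang II arrays. Wild-type vehicle arrays ran from 5.92 to 8.0 with a median of 7.60, with 6.07, 6.05 and 5.92 in set 1, and wild-type Ang II arrays read 6.23, 5.79, 7.64 and 7.54. Every knockout array was above every set 1 wild-type array, and 6 of 7 were below every set 2 wild-type array with vehicle or Ang II. The 2-HOBA arrays lay close together at 7.15, 7.30, 7.29 and 7.26, and the Hyd/HCTZ arrays ran from 8.51 to 8.76 with a median of 8.56. Subtracting wild type from knockout gave 0.14 with vehicle and -0.03 with Ang II, and -0.03 with vehicle when wild-type vehicle replicate 2 was left out.

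Hscb is a mitochondrial J-protein that works with the chaperone Hspa9 in the transfer of new iron-sulfur clusters from the scaffold Iscu. Its knockout levels were 5.53, 5.59 and 5.49 with vehicle and 5.60, 5.32, 5.44 and 5.54 with Ang II. The 7 wild-type vehicle arrays ranged from 3.92 to 5.65 with a median of 5.20, with 4.96, 5.08 and 3.92 in set 1. Wild-type Ang II arrays read 4.23 and 4.86 in set 1 and 6.01 and 5.51 in set 2. The knockout arrays varied little (SD 0.05 with vehicle, n = 3, and 0.12 with Ang II, n = 4) and stood above all 5 set 1 wild-type arrays. Those 5 values, 3.92 to 5.08, were near or below the level of 5 used as the filter, a range of dim signal. The 2-HOBA arrays read 5.51, 5.52, 5.33 and 5.52, and the Hyd/HCTZ arrays ran from 6.06 to 6.93 with a median of 6.65. The knockout difference was 0.38 with vehicle (0.37 without wild-type vehicle replicate 2) and 0.32 with Ang II.

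Zfp87 encodes a zinc finger protein and lies on chromosome 13. It read 5.44, 5.80 and 5.35 on knockout vehicle arrays and 4.80, 5.26, 5.60 and 4.72 on knockout Ang II arrays. In wild-type cells with vehicle it ran from 2.64 to 5.89 with a median of 5.46, and the lowest, 2.64, was the array labelled replicate 2. The other set 1 wild-type arrays read 3.65 and 4.13 with vehicle and 4.51 and 4.05 with Ang II. In set 2 wild-type Ang II read 5.94 and 5.61. All 5 set 1 wild-type values were below the level of 5 used as the filter, a range of dim signal, and all 7 knockout values were above them. With 2-HOBA the level was 5.73, 5.88, 5.67 and 5.91, and the Hyd/HCTZ arrays ran from 5.96 to 6.52 with a median of 6.10. Knockout minus wild type was 0.78 with vehicle, 0.43 without wild-type vehicle replicate 2, and 0.07 with Ang II.

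Cd7 is an immunoglobulin-family surface protein best known on T and NK cells. It was 8.99, 7.96 and 7.95 on knockout vehicle arrays and 7.36, 7.46, 7.16 and 7.61 on knockout Ang II arrays, so the knockout groups did not overlap. Wild-type vehicle arrays ran from 5.48 to 8.61 with a median of 8.05, with 6.90, 5.48 (the array labelled replicate 2) and 6.80 in set 1. Wild-type Ang II arrays read 6.73, 7.39, 8.88 and 8.21. Wild-type Ang II replicate 2, at 7.39, lay within the range of the knockout Ang II arrays. The 2-HOBA arrays read 8.36, 8.04, 8.05 and 8.32, and the Hyd/HCTZ arrays ran from 9.86 to 10.22 with a median of 9.92. Subtracting wild type from knockout gave 0.80 with vehicle (0.46 without wild-type vehicle replicate 2) and -0.41 with Ang II, so its sign differed between the treatments.

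Med11 is a subunit of the head module of Mediator, the complex that links transcription factors to RNA polymerase II. It read 6.51, 6.18 and 6.08 on knockout vehicle arrays and 6.41, 6.09, 5.97 and 5.88 on knockout Ang II arrays. The 7 wild-type vehicle arrays ranged from 5.03 to 6.38 with a median of 5.98, with 5.32, 5.03 and 5.53 in set 1, and wild-type Ang II arrays read 5.50, 5.73, 6.28 and 6.24. The knockout arrays shared the range of the set 2 wild-type arrays and lay above the set 1 ones. With 2-HOBA the level was 6.11, 6.40, 6.31 and 6.18. The Hyd/HCTZ arrays ran from 7.76 to 8.06 with a median of 7.83, well apart from the highest other array at 6.51. The knockout difference was 0.46 with vehicle (0.33 without wild-type vehicle replicate 2) and 0.15 with Ang II.

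Phf11a encodes a PHD finger protein, 1 of a small family of neighbouring mouse genes. It was 7.27, 7.21 and 6.44 on knockout vehicle arrays and 6.34, 6.52, 7.02 and 6.05 on knockout Ang II arrays. In wild-type cells with vehicle it ran from 5.43 to 7.18 with a median of 6.36, with 6.14, 5.43 and 5.55 in set 1, and wild-type Ang II arrays read 5.86, 6.01, 6.86 and 7.10. The lowest knockout array, at 6.05, was below the highest set 1 wild-type array, at 6.14, so these did not separate. The 2-HOBA arrays read 6.61, 7.06, 6.84 and 6.62, and the Hyd/HCTZ arrays ran from 7.77 to 8.20 with a median of 7.98. Knockout minus wild type was 0.68 with vehicle (0.54 without wild-type vehicle replicate 2) and 0.02 with Ang II.

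Rilpl2 belongs to the family of Rab-interacting lysosomal protein and binds Rab GTPases in membrane traffic. It was lower in knockout cells, at 6.03, 5.81 and 5.15 with vehicle and 5.32, 5.21, 5.74 and 6.56 with Ang II. Wild-type vehicle arrays ran from 5.08 to 7.41 with a median of 6.69, and the lowest was again the array labelled replicate 2, whose next neighbour was 6.05. Wild-type Ang II arrays read 7.06, 7.10, 6.03 and 6.84. Without wild-type vehicle replicate 2 the knockout vehicle arrays were all below the wild-type vehicle arrays, by 0.02 at the closest pair (6.03 against 6.05), whereas knockout Ang II replicate 4, at 6.56, lay inside the wild-type Ang II range. With 2-HOBA the level was 6.16, 5.72, 6.80 and 5.81 and overlapped the knockout arrays, and the Hyd/HCTZ arrays ran from 7.83 to 8.30 with a median of 8.08. Subtracting wild type from knockout gave -0.79 with vehicle, -1.02 without wild-type vehicle replicate 2, and -1.05 with Ang II.

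Apobr is a receptor of macrophages and related cells for apolipoprotein B48, through which they take up triglyceride-rich lipoproteins. It read 7.51, 7.15 and 7.30 on knockout vehicle arrays and 7.08, 7.40, 7.30 and 7.42 on knockout Ang II arrays. The 7 wild-type vehicle arrays ranged from 6.69 to 7.12 with a median of 6.90, and wild-type Ang II arrays read 6.39, 6.57, 6.47 and 6.39. With each treatment every knockout array was above every wild-type array, and the wild-type arrays did not split by set. The 2-HOBA arrays read 6.52, 6.16, 6.53 and 6.00, and the Hyd/HCTZ arrays ran from 7.19 to 7.62 with a median of 7.36, overlapping the knockout arrays. The knockout difference was 0.42 with vehicle (0.41 without wild-type vehicle replicate 2) and 0.85 with Ang II.

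In the order of group means, Cyb5r4 and Hscb were lowest in the wild-type vehicle and wild-type Ang II groups, whose means differed by less than the SD within them. Zfp87, Med11 and Phf11a also had the wild-type vehicle group lowest, although without wild-type vehicle replicate 2 the lowest mean of Zfp87 was that of wild-type Ang II (5.03). Each of these lowest means was within 1 SD of the next group. Lamtor2 had the knockout Ang II group lowest (6.77 ± 0.21, SD, n = 4), within 1 SD of wild-type Ang II (6.80 ± 0.93, n = 4). Cd7 had the same group lowest (7.40 ± 0.19, n = 4), within 1 SD of wild-type vehicle (7.50 ± 1.15, n = 7). For Rilpl2 the knockout vehicle group (5.66 ± 0.46, n = 3) and the knockout Ang II group (5.71 ± 0.61, n = 4) were lowest and did not differ beyond their spread. The group means of Apobr ran from 2-HOBA (6.30 ± 0.27, n = 4) through wild-type Ang II (6.46 ± 0.09, n = 4), wild-type vehicle (6.90 ± 0.16, n = 7), knockout Ang II (7.30 ± 0.15, n = 4) and knockout vehicle (7.32 ± 0.18, n = 3) to Hyd/HCTZ (7.38 ± 0.18, n = 6). The first 2 groups in that order did not differ beyond their spread, and neither did the last 3.

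The median of the 9 knockout differences was 0.46 with vehicle, beside -0.02 over all tested genes, and 0.07 with Ang II, beside -0.03. In limma's fit of all 28 arrays with Benjamini-Hochberg adjustment, a difference was called at an adjusted p below 0.05. With vehicle this called 1 gene of all tested (0.00957%) and 0 of the 9, with 657 genes at an unadjusted p below 0.05. With Ang II it called 5 genes (0.0478%), 1 of them Apobr. Leaving out wild-type vehicle replicate 2, it called 68 genes with vehicle (0.651%), 0 of the 9 among them, and 13 with Ang II (0.124%), Apobr again among them. These counts are no test of the 9 genes, which these same contrasts chose. The Apobr call with Ang II was lost when any 1 of the 4 wild-type Ang II arrays, or any 1 of knockout Ang II replicates 2, 3 and 4, was left out.

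By overlap of single arrays, knockout vehicle was above wild-type vehicle for Apobr alone of the 9, against 0.947% of tested genes, and knockout Ang II above wild-type Ang II likewise for Apobr alone (1.67%). Without wild-type vehicle replicate 2, knockout vehicle was below wild-type vehicle for Rilpl2 (5.48%). Against the 5 wild-type arrays of set 1, by contrast, all 7 knockout arrays were higher for Cyb5r4, Lamtor2, Hscb, Zfp87, Apobr and Med11, 6 of the 9 genes, where 0.909% of tested genes were (1.12% without wild-type vehicle replicate 2, with the same 6 genes). Without that array Rilpl2 was lower on all 7 knockout arrays than on the 4 that were left (1.25%). Against the 6 vehicle and Ang II wild-type arrays of set 2, 0 of the 9 genes were higher on all 7 knockout arrays (1.14%) and 0 were lower (8.71%). The arrays compared here are those whose difference chose the genes, so nothing is read from these counts of the 9.

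The size of the difference moved with the set in the same way. Against set 1 wild-type vehicle arrays, knockout vehicle arrays were 1.17 higher for Cyb5r4, 1.16 for Lamtor2, 0.88 for Hscb, 2.06 for Zfp87, 1.91 for Cd7, 0.97 for Med11, 1.27 for Phf11a and 0.50 for Apobr, and Rilpl2 was at -0.79. Without wild-type vehicle replicate 2, which left 2 set 1 vehicle arrays, Zfp87 was at 1.64, Cd7 at 1.45 and Rilpl2 at -1.47, and the other 6 genes moved by less than 0.25. With Ang II the differences against set 1 were 0.97 for Cyb5r4, 0.76 for Lamtor2, 0.93 for Hscb, 0.81 for Zfp87, 0.33 for Cd7, 0.47 for Med11, 0.55 for Phf11a, 0.82 for Apobr and -1.37 for Rilpl2. All tested genes had a median of 0.18 with vehicle (0.03 without replicate 2) and 0.02 with Ang II in the same comparison. The same knockout arrays against set 2 wild type gave other values.

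Against the 4 set 2 wild-type vehicle arrays, 5 of the genes were within 0.2 of zero: Cyb5r4 was at 0.02, Hscb at 0.01, Zfp87 at -0.18, Cd7 at -0.04 and Med11 at 0.08. Lamtor2 was at -0.63 and Phf11a at 0.24. With Ang II all 7 were lower on knockout than on set 2 wild-type arrays, from -0.17 for Med11 to -1.15 for Cd7, with a median over the 9 genes of -0.56 beside -0.09 for all tested genes. Rilpl2, at -0.80 with vehicle and -0.73 with Ang II, and Apobr, at 0.36 and 0.87, kept against set 2 the direction they had against set 1. No knockout array lies in set 2, so the comparison with set 2 crosses the sets, while that with set 1 stays within 1 set.

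**Figure D2:**
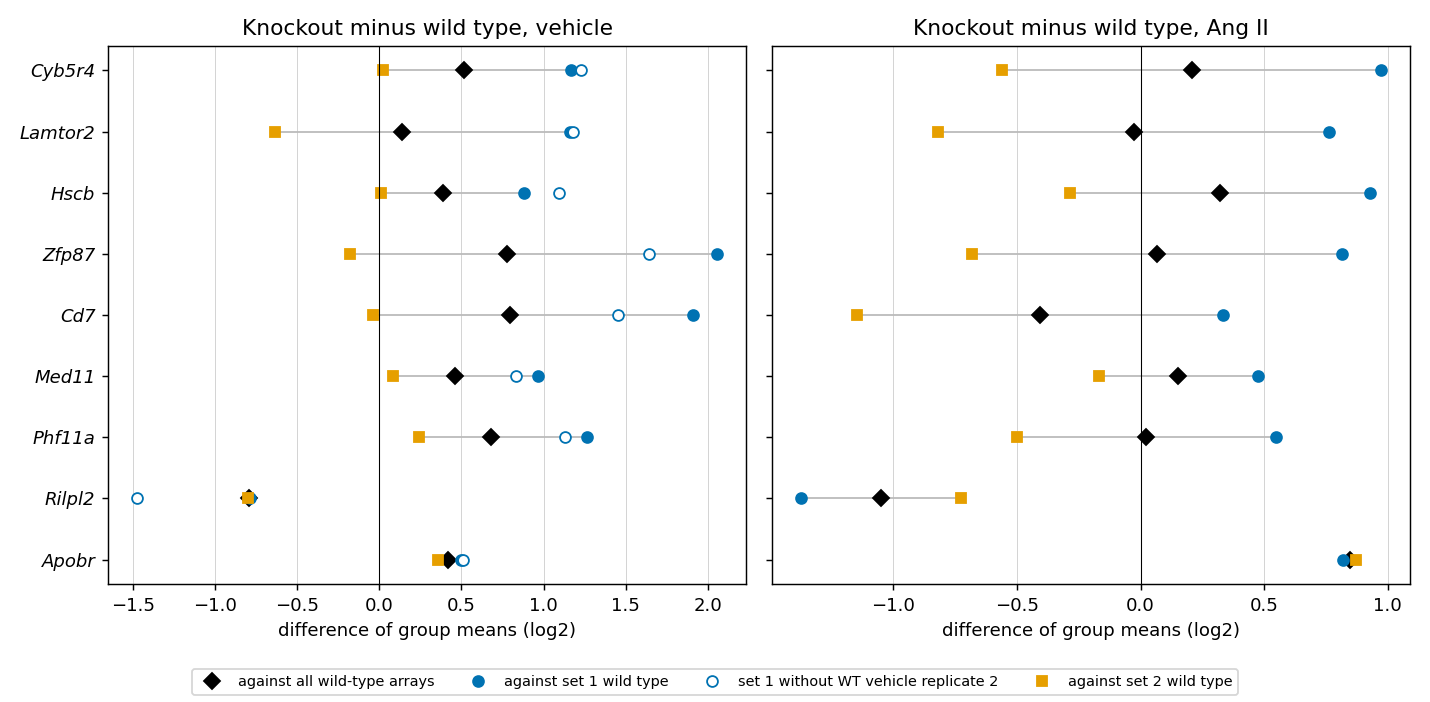
Knockout minus wild-type difference of group means (horizontal axis, log2) for each of the 9 genes (vertical axis), with vehicle on the left and Ang II on the right, against all wild-type arrays (diamonds), those of set 1 (blue circles, open without wild-type vehicle replicate 2) and those of set 2 (orange squares). With Ang II the symbols of 7 genes lie on both sides of zero, as for Cd7 from -1.15 to 0.33, while all symbols of Rilpl2 lie below zero and all of Apobr above it.

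With the set as a term in the limma fit of the 22 arrays of sets 1 and 2, the fit called 12 genes with vehicle (0.115%), and 6 of the 12 were Cyb5r4, Lamtor2, Zfp87, Cd7, Med11 and Phf11a. With Ang II it called 15 genes (0.144%), of the 9 Apobr alone. The same fit without wild-type vehicle replicate 2 called 22 genes with vehicle (0.21%), again 6 of the 9 but with Hscb in and Phf11a out, and 25 with Ang II (0.239%), Apobr among them. Within the 12 arrays of set 1 alone, 6 genes were called with vehicle (0.0574%), 1 of them Zfp87, and 16 with Ang II (0.153%), none of the 9 among them. When wild-type vehicle replicate 2 was left out, the set 1 counts were 26 with vehicle (0.249%), again with Zfp87, and 37 with Ang II (0.354%), with none of the 9. At an unadjusted p below 0.05 the Ang II fits within set 1 held 467 and 836 genes. The rule used this contrast, so nothing is read from the members' counts. The sets were read from the data after earlier results were known, and what separates the sets was not tested.

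All 6 set 2 wild-type arrays with vehicle or Ang II were above all 5 of set 1 for the 7 genes other than Rilpl2 and Apobr, against 17.6% of tested genes. The contrast that chose the genes includes these 5 set 1 arrays, so low levels on them were partly selected for, and nothing is read from this count. With vehicle the set 2 arrays were higher by 2.24 for Zfp87, 1.95 for Cd7, 1.79 for Lamtor2, 1.15 for Cyb5r4, 1.03 for Phf11a, 0.88 for Med11 and 0.87 for Hscb, beside a median of 0.39 over all tested genes. Without wild-type vehicle replicate 2 these differences were 1.82 for Zfp87, 1.49 for Cd7, 1.81 for Lamtor2, 1.21 for Cyb5r4, 0.89 for Phf11a, 0.75 for Med11 and 1.08 for Hscb, beside 0.23. With Ang II they were higher by 1.49 for Zfp87, 1.48 for Cd7, 1.58 for Lamtor2, 1.54 for Cyb5r4, 1.04 for Phf11a, 0.64 for Med11 and 1.21 for Hscb, beside 0.11. Apobr differed little, by 0.14 with vehicle (0.15 without replicate 2) and -0.05 with Ang II. Rilpl2 was at 0.01 with vehicle, -0.68 without replicate 2, and -0.65 with Ang II, that is lower in set 2.

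Several marker lists of cell types also differed in mean level between the wild-type vehicle arrays of the sets. In bulk arrays, fewer cells of a type and less RNA per cell cannot be told apart. The mean level of 6 plasmacytoid markers was 5.62 to 6.90 on set 1 wild-type vehicle arrays (from 6.75 without replicate 2), 7.35 to 7.93 on those of set 2 and 6.83 to 7.30 on the knockout arrays. That of 6 NK cell markers was 5.37 to 5.91 on set 1 (from 5.61 without replicate 2) and 6.40 to 7.03 on set 2 wild-type vehicle arrays, and 5.34 to 6.20 on the knockout arrays. Of 7 listed B cell markers, 6 were on the array, and their mean level was 6.88 to 8.51 on set 1 and 8.83 to 9.16 on set 2 wild-type vehicle arrays, and 7.38 to 8.75 on the knockout arrays. Without replicate 2 the set 1 B cell range began at 8.45, inside the knockout range. The 6 T cell markers overlapped between the sets, with mean levels of 5.78 to 6.73 on set 1 (from 6.29 without replicate 2) and 6.54 to 6.95 on set 2, and were 5.17 to 6.31 on the knockout arrays. Red pulp macrophage markers had mean levels of 6.74 to 7.60 on set 1 (from 7.36 without replicate 2), 8.01 to 8.93 on set 2 and 7.02 to 8.30 on the knockout arrays. The shared dendritic cell markers were at 7.46 to 8.08 on set 1 (from 7.98 without replicate 2), 8.18 to 8.52 on set 2 and 8.07 to 8.38 on the knockout arrays. None of the B, T or NK cell markers was below a level of 5 on every array of a group. The part of these cells in the levels of the 9 genes was not tested.

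Pairwise correlations showed the same grouping, and are given as a description over arrays that share sets and groups. Over the 27 arrays without wild-type vehicle replicate 2, the 21 pairs among the 7 genes had Pearson correlations of 0.72 to 0.93 with a median of 0.87. Within the 11 arrays of set 1 they were 0.62 to 0.90 with a median of 0.79, and within the 10 arrays of set 2 they were -0.34 to 0.73 with a median of 0.16. Set 1 includes knockout and wild-type arrays, whose difference chose the genes, and set 2 holds wild-type arrays only. Rilpl2 ran against the other 8 genes within set 1 (-0.87 to -0.46) and had correlations of -0.75 to 0.42 with them in set 2. Apobr had 0.68 to 0.87 with the 7 genes in set 1 and -0.51 to 0.68 in set 2.

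**Figure D3:**
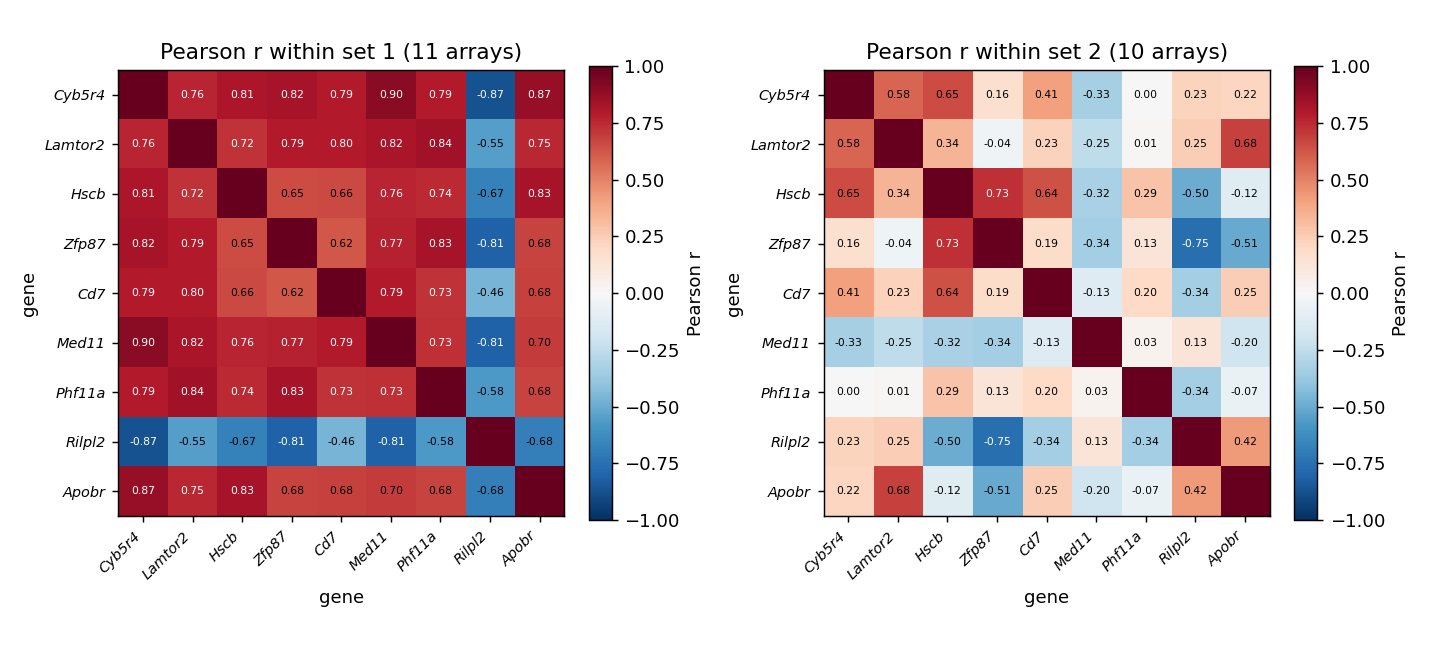
Pearson correlation (colour and printed value) of the log2 levels of each pair of the 9 genes, within the 11 arrays of set 1 without wild-type vehicle replicate 2 on the left and within the 10 arrays of set 2 on the right. On the left the 7 genes from Cyb5r4 to Phf11a and Apobr form a positive block (0.62 to 0.90 among the 7) and Rilpl2 is negative throughout, and on the right the correlations scatter around a median of 0.16 among the 7.

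The genes whose levels ran most like each member over these 27 arrays, by Pearson correlation, are also a description. For Lamtor2 they were Rnf130 and Rap2c, both with a correlation of 0.98, with 0.81 and 0.86 within set 2, and Fh1, with 0.96 and -0.15 within set 2. For Hscb they were Commd6 (0.94), Fmc1 (0.93) and Psma5 (0.92), with 0.87, 0.80 and 0.45 within set 2. For Cyb5r4 they were Zfp386 (0.92), Krr1 (0.90) and Mbnl3 (0.88), with 0.72, 0.71 and 0.53 within set 2. Rilpl2 ran with Nr4a2 (0.93), Nfil3 (0.92) and Gla (0.92), of which the first encodes an orphan nuclear receptor induced early after stimulation, the second a basic leucine zipper repressor and the third the lysosomal alpha-galactosidase. Within set 2 these stayed at 0.90, 0.83 and 0.90, and within set 1 at 0.79, 0.82 and 0.88. Apobr ran with Ehbp1l1 (0.86), Fes (0.85), a tyrosine kinase of myeloid cells, and Ptpre (0.84), a receptor-type tyrosine phosphatase, and had 0.74 to 0.76 with them within set 2.

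Cd7 ran with Cuta and Lgals1 (both 0.95), at 0.55 and 0.67 within set 2, and with the dendritic cell lectin Cd209a (0.95), at 0.08 within set 2. Med11 ran with Snx20, with Rheb, the GTPase that activates mTORC1, and with the ribosomal protein gene Rpl14 (0.96 each), at 0.04, -0.41 and 0.03 within set 2. Zfp87 ran with Lypla1 and Usp42 (both 0.89) and with Cdk19 (0.88), at 0.59, 0.27 and -0.35 within set 2. Phf11a ran with Anapc15, Psma5 and Snapc5 (0.92 each), at 0.27, -0.15 and 0.46 within set 2.

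None of the 9 genes lies on the X chromosome, which carries Cybb. Med11 and Cd7 lie on chromosome 11 with Stx8, and 56 tested genes separate Stx8 from Med11. Hscb and Rilpl2 are both on chromosome 5, and Cyb5r4, Lamtor2, Apobr, Zfp87 and Phf11a are on chromosomes 9, 3, 7, 13 and 14. Of the 180 nearest tested genes, 10 on each side of each of the 9, none was called between genotypes over all arrays by limma. That fit called 0.00957% of all tested genes with vehicle and 0.0478% with Ang II, so nothing is read from this absence. With the set as a term 1 was called, Tent5a near Cyb5r4, which was 1.27 higher in knockout cells with Ang II (adjusted p = 0.0366) and was chosen for mention after its value was seen. Med11 had neighbours that differed by -0.48 to 0.35 with vehicle over all arrays, beside 0.46 for Med11 itself.

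Comparisons between treatments were not what chose the genes, although those with wild-type vehicle or wild-type Ang II arrays share arrays with the contrasts that did. The comparison of 2-HOBA with Hyd/HCTZ, both given with Ang II, shares no array with them. It sets arrays of set 2 against those of set 3, so treatment and array set cannot be told apart in it. All 9 genes were higher with Hyd/HCTZ added to Ang II than with Ang II alone, and 8 of the 9 were called lower with 2-HOBA than with Hyd/HCTZ. Ang II alone, and 2-HOBA added to it, gave no call among the 9.

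Relative to Ang II alone, 9 of 9 genes were higher with Hyd/HCTZ at an adjusted p below 0.05 in limma's fit, as were 40.8% of all tested genes (4261 higher and 1242 lower). Cd7 was 2.15 ± 0.42 higher (SE, a 4.44-fold difference, adjusted p = 0.000106) and Med11 was 1.95 ± 0.21 higher (3.85-fold, adjusted p = 2.59e-08), with 6 Hyd/HCTZ and 4 Ang II arrays. Lamtor2 rose by 1.79 (adjusted p = 0.000237), Phf11a by 1.52 (6.25e-05), Hscb by 1.41 (0.000112), Rilpl2 by 1.32 (0.00123), Zfp87 by 1.16 (0.0290), Cyb5r4 by 1.15 (0.00231) and Apobr by 0.92 (4.63e-06). The median of all tested genes was 0.32 in this comparison. Relative to that median, 8 of the 9 were still higher, against 23.7% of tested genes, and Zfp87 was at 0.84 with an adjusted p of 0.116. Taking off the median does not remove the wider spread of values on the Hyd/HCTZ arrays. The Zfp87 call was also lost without wild-type Ang II replicate 1 (adjusted p = 0.0999) or 2 (0.151) and without Hyd/HCTZ replicate 1 (0.0528) or 6 (0.0504), and with quantile normalization Zfp87 (0.113) and Rilpl2, at 0.82, lost theirs. The 4 wild-type Ang II arrays include 2 of set 1, where 7 of the genes were low. These 4 arrays were also part of a contrast that chose the genes. The count of 9 of 9 and its p-values are therefore not independent of that choice.

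Against Hyd/HCTZ, 8 of 9 genes were called lower with 2-HOBA at an adjusted p below 0.05, and so were 36% of all tested genes. Rilpl2 had the largest difference, -1.95 ± 0.32 (SE, adjusted p = 1.61e-05 by limma, 4 against 6 arrays). Cd7 was at -1.77 (0.000985), Med11 at -1.63 (4.23e-07), Lamtor2 at -1.34 (0.00415), Phf11a at -1.20 (0.000973), Hscb at -1.10 (0.00174), Apobr at -1.07 (5.80e-07) and Cyb5r4 at -0.89 (0.0172). Zfp87 did not pass, at -0.39 with a 95% interval of -1.30 to 0.52. All tested genes had a median of -0.25, and relative to it 7 of the 9 were still lower, against 23.2% of tested genes, with Cyb5r4 at an adjusted p of 0.0860. The Cyb5r4 call was also lost without 2-HOBA replicate 2 (adjusted p = 0.0624) and with quantile normalization (0.124).

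The Hyd/HCTZ arrays also differed in cell markers. The mean level of the 6 measured B cell markers was 5.81 to 7.12 with Hyd/HCTZ, below the 8.17 to 9.26 of wild-type Ang II and the 9.02 to 9.56 of 2-HOBA. Type 1 dendritic cell markers (6 genes) had a mean level of 8.28 to 8.58 with Hyd/HCTZ and 6.41 to 7.07 with Ang II alone, and the 6 shared dendritic cell markers one of 8.89 to 9.18 and 8.07 to 8.36. Type 2 dendritic cell markers were at 6.64 to 7.06 and 5.69 to 6.27, plasmacytoid markers at 7.53 to 8.04 and 6.57 to 7.32, and red pulp macrophage markers at 7.88 to 9.35 and 6.91 to 7.90. Not every gene of these lists was higher. The type 2 marker Dtx1 had a median of 6.64 with Hyd/HCTZ, beside 7.42 and 7.56 on wild-type arrays of sets 1 and 2. The plasmacytoid marker Ly6d was at 7.94, beside 7.78 and 8.90. Erythroid markers (3.90 to 4.59 and 5.02 to 6.28) and stromal markers (4.59 to 5.01 and 5.29 to 5.70) were lower with Hyd/HCTZ, and NK cell and neutrophil markers overlapped. With Hyd/HCTZ 4 of 6 erythroid and 4 of 6 stromal markers were below a level of 5 on every array, a range of dim signal. With Ang II alone this was so for 0 and 2 of them. The mean level of the 6 T cell markers was 5.06 to 5.74 with Hyd/HCTZ and 6.11 to 6.52 with Ang II alone, while Cd7 was higher with Hyd/HCTZ. Their part in the differences of the 9 genes was not tested, and they cannot be told apart from set 3.

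Ang II against vehicle called 0 genes in wild-type cells (0%), 0 in knockout cells (0%) and 0 in the interaction of genotype and Ang II (0%) in limma's fit, where 266, 296 and 257 genes had an unadjusted p below 0.05. Among the 9 genes this was so for Apobr alone and in wild-type cells alone, where Ang II was at -0.45 against vehicle (adjusted p = 1.00 by limma, with 0.00265 before adjustment). In knockout cells Apobr was at -0.02, and the interaction was 0.43 with an unadjusted p of 0.0557, so the responses of the genotypes were not shown to differ. Cd7 was at -0.90 with Ang II in knockout cells (95% interval -1.91 to 0.10) and its interaction was -1.20 (unadjusted p = 0.0687 by limma). Adding 2-HOBA to Ang II likewise called 0 genes (0%), with 379 at an unadjusted p below 0.05 and none of the 9 among them. The largest of the 9 differences there were 0.77 for Zfp87 (95% interval -0.22 to 1.76) and -0.63 for Rilpl2 (-1.35 to 0.09). All 4 arrays with 2-HOBA were in set 2, while 2 of the 4 wild-type Ang II arrays were in set 1. This comparison therefore mixes sets. For Zfp87 the 2-HOBA mean was 5.80 beside 5.77 on the set 2 Ang II arrays, and for Rilpl2 it was 6.12 beside 6.43.

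**Figure D4:**
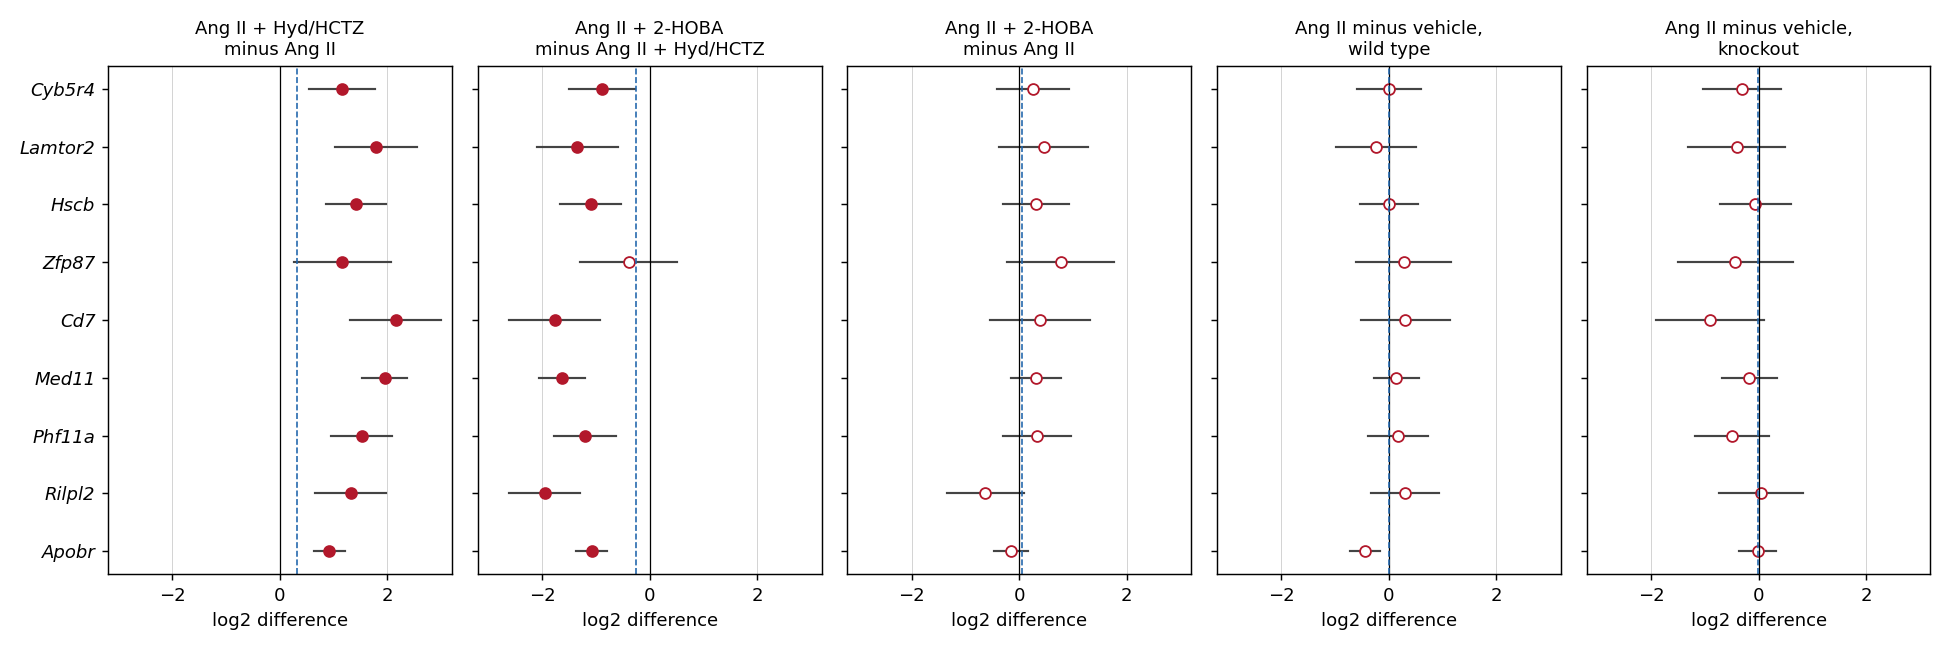
Log2 difference (horizontal axis) of each of the 9 genes (vertical axis) in 5 treatment comparisons, with 95% intervals, filled circles where the adjusted p was below 0.05, and a dashed line at the median of all tested genes. All 9 genes are filled and to the right with Hyd/HCTZ against Ang II, 8 of 9 are filled and to the left with 2-HOBA against Hyd/HCTZ, and none is filled in the other 3 panels.

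The genes that work with each member were examined through lists of partners, leaving out the member itself. None of the listed partners was called between genotypes in limma's fit of all arrays, or with the set as a term. Over all tested genes these fits called 0.00957% with vehicle and 0.0478% with Ang II, and 0.115% and 0.144% with the set as a term. With so few calls over all genes, nothing is read from their absence among the partners. For Lamtor2, 16 genes of Ragulator and lysosomal mTORC1 signalling were tested. Of these 7 rose with Hyd/HCTZ against Ang II and 0 fell, with a median difference of 0.56 beside 0.32 for all tested genes. Over all tested genes 40.8% rose and 11.9% fell in this comparison, so the count of 7 of 16 is near that background. They were Lamtor1, Lamtor3 and Lamtor4 (other Ragulator subunits), the Rag GTPase Rragc, the folliculin partners Fnip1 and Fnip2, and Rheb. Rheb rose by 1.72 (adjusted p = 3.36e-07), Rragc by 1.23 and Lamtor3 by 0.92. Against Hyd/HCTZ, 6 of the 16 were lower with 2-HOBA, near the 36% of all tested genes.

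For Med11, 30 other Mediator genes were tested, of which 20 rose with Hyd/HCTZ and 0 fell, with a median of 0.65, where 40.8% of all tested genes rose. Med21, a middle module subunit, rose by 2.47 (adjusted p = 2.88e-07 by limma) and Med28 by 1.89 (1.28e-06). Relative to the median of all genes 9 of the 30 were higher, beside 23.7% of all tested genes. For Hscb, 18 genes of iron-sulfur cluster assembly were tested, of which 10 rose and 0 fell, with a median of 0.66. The scaffold Iscu rose by 1.59 (1.59e-08), Ndufab1, the acyl carrier protein, by 2.01 (1.96e-08), and the ferredoxin Fdx1 by 1.65 (1.12e-07). Against Hyd/HCTZ, 2-HOBA was lower for 16 of the 30 Mediator genes and 12 of the 18 iron-sulfur genes, beside 36% of all tested genes.

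Of 6 tested relatives of Cyb5r4 among cytochrome b5 and its reductases, 5 rose with Hyd/HCTZ, with a median of 0.77, and this count and those of the next 3 lists stand beside 40.8% of all tested genes that rose. Cyb5a, the electron carrier itself, rose by 1.98 (adjusted p = 9.65e-07 by limma) and the reductase Cyb5r3 by 1.35 (5.26e-06). Of 9 tested lipoprotein receptors and lipid handling genes, set beside Apobr, 6 rose and 0 fell. Scarb1, the receptor for high-density lipoprotein, rose by 1.62 (1.05e-06) and Lrp8 by 0.83 (0.000217). For Rilpl2, 8 genes of the Rilp family and its Rab partners were tested, of which 2 rose, Rac1 by 0.55 (0.00102) and Rab7 by 0.40 (0.0254), with a median of 0.24, so the list lay below the median of all genes and Rilpl2, at 1.32, above it. Of 11 tested zinc finger genes listed beside Zfp87, 3 rose, with a median of 0.12. The Phf11 family relatives Phf11c, at 0.54 (0.159), and Phf11d, at 0.12 (0.459), did not pass.

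Beside Cd7, 13 T and NK cell surface genes were tested, of which 3 rose with Hyd/HCTZ and 4 fell, beside 40.8% and 11.9% of all tested genes, with a median of -0.38. Cd4 rose by 1.31 (adjusted p = 5.14e-06 by limma), Cd8a by 1.55 (9.31e-06) and Klrd1 also rose, and Cd4 and Cd8a are carried by subsets of splenic dendritic cells as well as by T cells. Cd2, Cd3e, Cd3g and Cd247, which encode T cell surface and receptor signalling proteins, fell, with Cd247 at -0.96 (1.46e-05). Cd7 thus rose as Cd4, Cd8a and Klrd1 did, Cd2, Cd3e, Cd3g and Cd247 fell, and the rest of the 13 were not called. Which cells carried the Cd7 signal was not tested. Relative to the median of all genes, 3 of the 13 were higher and 8 lower, beside 23.7% and 25% of all tested genes.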

How the data were processed

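Total RNA was extracted with Trizol and hybridised as biotin-labelled cRNA, per the labels' protocols. The deposited table holds 1 log2 value per probe set and array (0.902 to 14.3 over 35556 probe sets). The submitters' processing notes name RMA and Partek 6.6, and the settings are not given in the sources used here. RMA compresses large differences and those of dim genes, and no detection calls were used. GEO's platform annotation gave 1 symbol for 21789 probe sets, several for 1621 and none for 12146, and the probe set with the highest mean was kept for each gene. Of the 10452 tested genes, 10425 were matched to RefSeq (GRCm38.p6) for names, chromosomes and promoter windows, with no promoter window for Hscb, Zfp87 or Cd7.

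The means of the 6 groups were fitted with limma 3.58.1 (lmFit and eBayes) in R 4.3.3 over all 28 arrays, without a batch term, and adjusted by Benjamini-Hochberg over all tested genes. All p-values are two-sided. Precision is limited by how many arrays each group has. The script was tested on data with known answers. The members and all gene lists, including partners and cell markers, were chosen with earlier results of these data known. The genes named beside each member were the 3 with the highest Pearson correlation, with predicted genes, pseudogenes and genes named after clones passed over. The list genes were those with the smallest p in the Hyd/HCTZ comparison. Alternatives were other filters on the level, array weights, an eBayes step with trend and robust options, normalization to equal quantiles or to equal medians, the replicate number as a block, only the groups compared, and leaving out each array of those groups. The array set and the shift to the median of all genes were added after seeing the data. The deviations of same-numbered arrays had correlations of both signs in every comparison except knockout against wild type with Ang II. There all were positive but weak (0.04 to 0.15). The numbers were not taken as pairs.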

Additional observations from a re-analysis of the deposited data

Results flagged for a closer look

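Of 45 combinations of a gene and a group with 4 to 10 arrays, 3 held an array that stood apart from the rest by Dixon's criterion at the 95% level, which chance gives in about 1 of 20. Hscb was 3.92 on wild-type vehicle replicate 3, the lowest of its group, and the nearest array was 4.96. Hscb was also low on 2-HOBA replicate 3, at 5.33, where the nearest array was 5.51. Cd7 was high on Hyd/HCTZ replicate 4, at 10.22, where the nearest array was 9.96.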

How the results depend on the processing

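No value called in a treatment comparison turned its direction under any alternative run. Values of the 9 genes that were not called did so in some runs, counted over genes and runs. For Ang II against vehicle 32 turned and 191 did not in wild-type cells, and 7 and 153 in knockout cells. For 2-HOBA against Ang II the counts were 14 and 155, and for the interaction 12 and 265. With vehicle, 1 gene was called over all arrays, 0 among genes above 7 on 3 arrays, 1437 with array weights, 2 with quantile normalization, 2 with the replicate block, 12 with the array set as a block (22 without wild-type vehicle replicate 2) and 6 within set 1 (26 without it). Of the 9 genes this held 0 over all arrays, 6 with the set as a block, with or without that array, and 1 within set 1, with or without it. Leaving out 1 array at a time gave 1 to 68 genes, 68 without wild-type vehicle replicate 2, and 0 of the 9. With Ang II, 5 genes were called over all arrays, 3 with array weights, 13 with quantile normalization, 11 with the replicate block, 14 with only the groups compared, 15 with the set as a block, 16 within set 1, and 1 to 3 without 1 array of the groups compared. Without wild-type vehicle replicate 2, which is in neither of these groups, 13 were called. Apobr was not called with array weights, with only the groups compared, or within set 1 (0 of the 9 genes each), and leaving out 1 array gave 0 to 1 of the 9.

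Ang II in knockout cells called 1 gene with array weights and 1 with quantile normalization, and 2-HOBA against Ang II called 5 within set 2 and 0 to 1 without 1 array (1 without wild-type Ang II replicate 3), none of them among the 9. Ang II in wild-type cells and the interaction called 0 genes under every alternative run. Hyd/HCTZ against Ang II called 5503 genes, 8761 without a filter and 2552 above 7, where different numbers of genes were tested, 4585 to 5521 without 1 array of the groups compared (6316 without wild-type vehicle replicate 2), and 8 to 9 of the 9 genes. Zfp87 lost its call there without wild-type Ang II replicate 1 (adjusted p = 0.0999) or 2 (0.151), without Hyd/HCTZ replicate 1 (0.0528) or 6 (0.0504), and with quantile normalization (0.113), where Rilpl2 lost its call too. 2-HOBA against Hyd/HCTZ called 4774 genes, 2262 above 7, 3973 to 4774 without 1 array of the groups compared (5630 without wild-type vehicle replicate 2), and 7 to 8 of the 9. Cyb5r4 lost its call there without 2-HOBA replicate 2 (0.0624) and with quantile normalization (0.124), and Zfp87 gained one with only the groups compared (0.0170). With the replicate number as a block, which does not pair the arrays, Zfp87 lost its call in the first of these comparisons (0.0988) and Cyb5r4 in the second (0.0675). The cause of these shifts was not tested. The set as a block, the fits within a set and the shift to the median of all genes were chosen after seeing the data.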
